A study of Mus musculus with 9 samples.

Results

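Gamma motor neurons (MNs) are the nuclei that the authors' annotation places in cluster S3 of the spinal cholinergic neurons. The cluster held 2241 of the 16042 cholinergic nuclei, and of all 34231 annotated nuclei. The lumbar/sacral libraries supplied 1031 of them, from 396, 346 and 289 nuclei in replicates 1, 2 and 3, and the cervical and thoracic libraries, together called rostral here, supplied 1210, with 58 to 343 nuclei in each of the 6 libraries. The nuclei came from single nucleus RNA sequencing of GFP+ nuclei sorted from adult mouse spinal cord. All mice were 8 weeks old and of the strain Chat-IRES-Cre::Sun1-sfGFP, with 1 copy of the Cre driver and 1 of the reporter (Chat-iCre:+/wt; SUN-SfGFP:+/wt), so that cells with a history of *Chat* expression carried a fluorescent nuclear envelope, whether or not they still expressed *Chat*. The cords of 12 mice, in 3 pools of 4, were each cut into 3 levels, which gave 9 libraries. Replicate 1 pooled 2 males and 2 females, replicate 2 only males and replicate 3 only females, so the libraries that share a number share mice, and sex cannot be told apart from pool. The 6 rostral libraries thus come from 3 pools. Lumbar and sacral tissue was processed together, and these levels cannot be told apart.

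Muscle spindles, the length sensors of skeletal muscle, have small muscle fibers of their own, and gamma MNs are the cells that make these contract and so keep the sensor taut when a muscle shortens. Force comes from the large fibers around the spindle, which are the targets of alpha MNs. Motor neurons at limb levels and at trunk levels supply different muscles, and their position along the cord is set in the embryo by the Hox genes, transcription factors lying in 4 clusters whose order on the chromosome follows the order of their domains along the body, with the highest-numbered genes expressed most caudally. Dissection by level allowed the comparison described here, of the same annotated cell type between the lumbar/sacral cord and the levels rostral to it.

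Values are corrected counts, which SCTransform makes by removing the modelled effect of depth on each nucleus, summed over the gamma nuclei of a library and scaled to a total of 1000000 (CPM). A gamma library sum held from 930500 to 3133110 corrected counts. Depth went with region, though not without overlap. The median corrected total of a gamma nucleus was 4909, 7311 and 5906 in lumbar/sacral replicates 1 to 3 and ran from 7053 to 16190 in the rostral libraries, and its part in the results was tested only by adding it to the model, as given below. *Malat1*, an abundant nuclear RNA picked after its values were seen, ranged from 34159 to 147520 CPM between gamma library sums and overlapped between the groups. Of the gamma nuclei 33 were called doublets by Scrublet and were kept, and 1 gamma barcode occurred in more than 1 library.

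The libraries labelled cervical replicate 2 and thoracic replicate 2, both from males, went against their labels. *Hoxa9* was at 0, 10.7 and 0 CPM in cervical replicates 1, 2 and 3 and at 12.3, 0.638 and 22.9 CPM in thoracic replicates 1, 2 and 3. *Hoxc5* was at 17.4, 69.9 and 22.2 CPM in the cervical libraries and at 107, 10.9 and 95.7 CPM in the thoracic ones. In both genes each of the male libraries was nearer to the other region than to its own. The libraries kept their labels. Since cervical and thoracic libraries stand on the same side of the main comparison, it pools them, and results without both are given beside it.

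Each of the 10 gamma markers was found at every level, in shares of nuclei that differed widely between markers. Shares are given after every nucleus was thinned to 4000 corrected counts. *Esrrg*, an orphan nuclear receptor of gamma MNs, had a corrected count in 99.1 to 100% of gamma nuclei of each library after every nucleus was thinned to 4000 corrected counts, and *Gfra1*, a GDNF co-receptor, in 86.2 to 96.5%. All 10 gamma markers were tested, and 0 of them passed the threshold between the groups (limma, adjusted p under 0.05), with 2 at an unadjusted p under 0.05. Over all features tested, 0.061% passed and 5.98% had an unadjusted p under 0.05. *Pard3b*, related to a cell polarity gene, showed the widest gap, at 446, 367 and 443 CPM in the lumbar/sacral libraries and 514 to 709 CPM in the rostral ones (log2 difference -0.59 ± 0.13 SE, adjusted p = 0.168, limma). *Plekhg1* and *Creb5* likewise did not overlap between the groups and did not pass, with adjusted p = 0.694 and 0.824 (limma). By CPM 3 of the 10 markers thus lay wholly below the rostral libraries, beside 0.63% of all features tested. The 6 alpha markers summed to 110 to 135 CPM in lumbar/sacral and 54.8 to 121 CPM in rostral gamma nuclei, of which *Rbfox3*, which encodes NeuN, made up 69.6 to 83.1 and 36.5 to 76.9 CPM. Marker sums of other neurons moved with the groups in 2 cases. The 3 visceral MN markers summed to 49.8 to 67.7 CPM in lumbar/sacral and 10.8 to 43.6 CPM in rostral libraries, and the 4 inhibitory markers to 24.5 to 28.8 and 30.1 to 53.0 CPM, without overlap in either. The Type 3 markers (75.6 to 92.2 and 51.6 to 99.0 CPM), the interneuron markers (35.8 to 45.8 and 21.5 to 71.2 CPM) and the excitatory markers (6.60 to 8.85 and 1.08 to 8.30 CPM) each overlapped between the groups. Summed over 5 oligodendrocyte markers the level was 38.4 to 57.0 CPM in lumbar/sacral and 31.6 to 47.7 CPM in rostral libraries, and over 5 astrocyte markers it was 12.8 to 17.4 and 11.4 to 26.9 CPM, of which *Gja1* was at 0 in 6 libraries. The 3 microglial markers found, *P2ry12* foremost, summed to 13.3 to 116 CPM in lumbar/sacral and 6.15 to 117 CPM in rostral libraries. The endothelial markers were at 3.29 to 5.75 CPM. The part of RNA of other cells in the results was not tested.

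**Figure D1:**
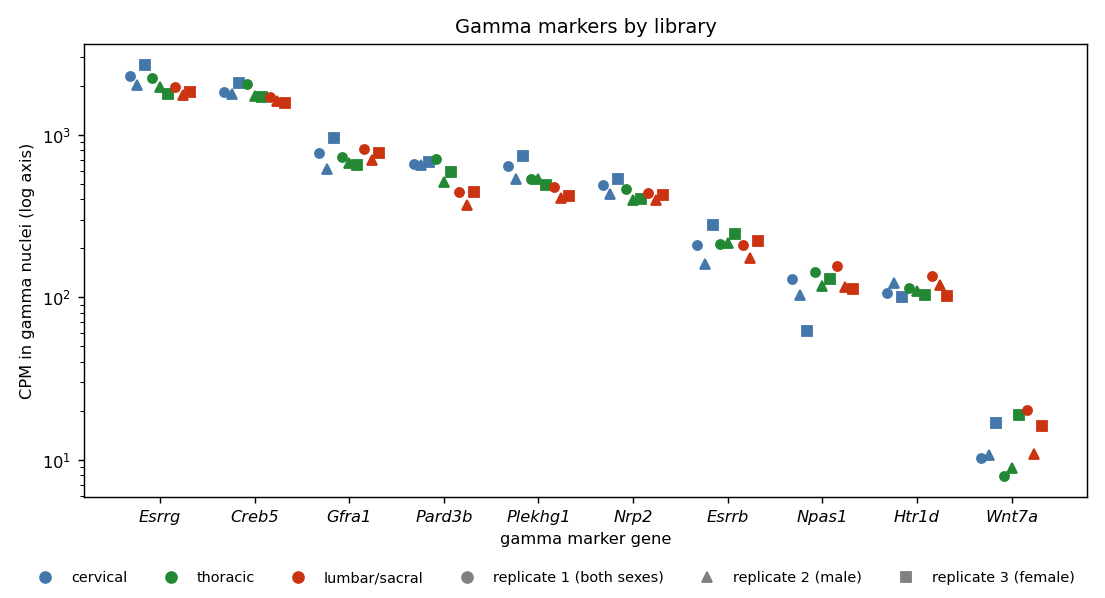
Level of the 10 gamma markers in gamma nuclei (CPM, log axis) for each of the 9 libraries, coloured by region, with 1 symbol for each replicate pool. *Pard3b* lies at 367 to 446 CPM in the lumbar/sacral libraries and 514 to 709 CPM in the others, and *Esrrg* and *Gfra1* overlap.

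The part of skeletal MNs that gamma nuclei made up was not shown to differ between the groups. They were 48.8, 57.5 and 39.5% of skeletal MN nuclei in lumbar/sacral replicates 1 to 3, and between 34.9 and 51.3% in the rostral libraries. The means were 48.6% ± 9.0 (SD, n = 3) and 42.1% ± 7.12 (SD, n = 6), and the difference of 6.5 percentage points was within the spread (exact permutation test, two-sided, p = 0.262, where 84 groupings allow no p under 0.0119). Of all cholinergic nuclei they were 17.0% ± 2.24 (SD, n = 3) against 11.8% ± 5.54 (SD, n = 6), with p = 0.190 by the same exact test. With 1 library of each replicate taken as lumbar/sacral, 27 assignments, the exact test gave p = 0.333 and 0.222 in the same order. These shares are shares of sorted nuclei and not of cells in the cord.

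Between lumbar/sacral and rostral gamma nuclei 6 of 9841 tested features differed (0.061% of those tested, limma on log2 of CPM plus 5, adjusted p under 0.05), of which 4 were higher (0.0406%) and 2 lower (0.0203%) in the lumbar/sacral cord. *Hoxd11*, *Mctp2*, *Hgf* and *Dysf* rose, and *Sox5* and *Kcnc2* fell. All 6 had no overlap between the groups, as did 4.29% of the features tested. With the replicate pools as a block 10 features passed (0.102%), and these were the 6 named with *Kcnq5*, *Epha6*, *Pcdh11x* and *Slc35f4*. The median log2 difference of all tested features was 0.14, and -0.0015 under median-of-ratios scaling, so small differences are read against it. By CPM 360 features lay wholly above and 62 wholly below the rostral libraries, and 123 and 189 after median-of-ratios scaling. *Hoxd11*, *Mctp2* and *Sox5* passed under both scalings, while *Hgf*, *Dysf* and *Kcnc2* passed by CPM alone, with log2 differences of 1.05, 0.61 and -1.42 under median of ratios beside 1.20, 0.77 and -1.26 by CPM. With the median total per nucleus as a covariate 1 feature passed, *Hoxd11* (limma, adjusted p = 0.00841), while *Mctp2*, *Sox5* and *Kcnc2* were at adjusted p = 0.247 and *Hgf* and *Dysf* at 0.527. The log2 differences in that fit were 2.04 for *Mctp2*, -1.16 for *Sox5*, -1.5 for *Kcnc2*, 1.04 for *Hgf* and 0.77 for *Dysf*, against 2.16, -1.25, -1.26, 1.20 and 0.77 without the covariate. Of the 9841 features, 588 had an unadjusted p under 0.05 in the main comparison (5.98%).

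**Figure D2:**
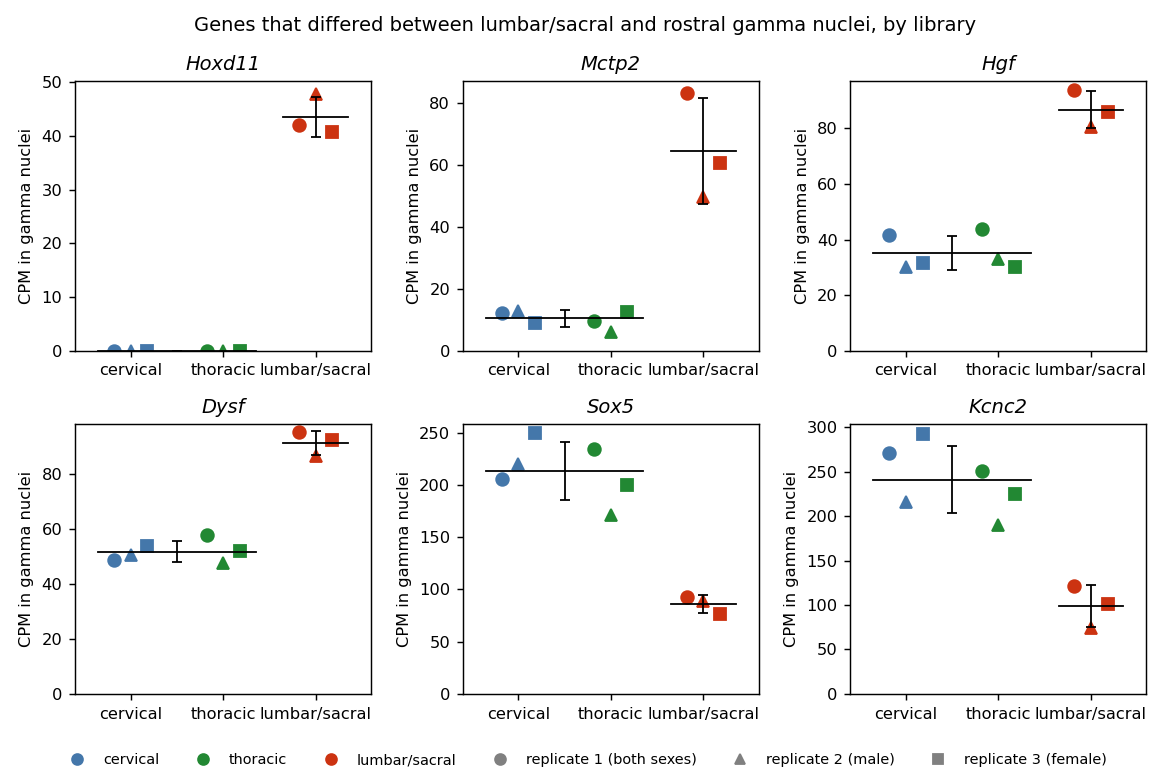
Level in gamma nuclei (CPM) of the 6 genes that differed, by region, with 1 point per library and 1 symbol for each replicate pool. Horizontal lines are the means of the 6 rostral and the 3 lumbar/sacral libraries with bars of 1 SD, and in each panel the lumbar/sacral points lie outside the range of the others, with *Hoxd11* at 0 in all 6 rostral libraries.

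The largest fold differences lay in the Hox genes. *Hoxd11*, a homeodomain factor of the caudal end of the HoxD cluster (chromosome 2, 74679557 to 74687016, plus strand, GRCm38), was at 42.1, 47.9 and 40.8 CPM in lumbar/sacral replicates 1 to 3 and at 0 in each of the 6 rostral libraries. No rostral gamma nucleus held a corrected count of it, 0 of 1210, which allows a share of up to 0.248% by counting error alone. This limits nuclei with a corrected count in these libraries and not nuclei that express the gene. Pooled over the group, the lumbar/sacral level was at least 161-fold higher than the floor of 3 corrected counts in all rostral gamma nuclei, 0.274 CPM. The fitted log2 difference was 3.28 ± 0.20 (SE, limma, adjusted p = 6.52e-05), a value that the pseudocount limits. The adjusted p depends on the pseudocount too, at 0.0139 with 1 and 5.57e-06 with 20 (limma). All 6 rostral values are equal at 0, so they add no spread of their own to the SE. The gene also passed the filter only through the lumbar/sacral libraries. After thinning, *Hoxd11* was found in 14.7, 16.8 and 12.1% of lumbar/sacral gamma nuclei. Unthinned it was found in 16.7, 26.0 and 18.7%, so most lumbar/sacral gamma nuclei held no corrected count of it.

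The Hox list has 39 genes, of which 28 are in the matrix and 7 passed the filter of 10 CPM in 3 library sums. *Hoxd11* alone of the 7 passed the test. It and *Hoxa10* entered the 7 only through the lumbar/sacral libraries, so no median over the 7 is given. *Hoxa10* (chromosome 6, 52231197 to 52240854, minus strand) was at 15.4, 15.7 and 12.6 CPM in the lumbar/sacral libraries, at 5.37 CPM in the library labelled cervical replicate 2, and at 0 to 0.878 CPM in the other 5. Its groups did not overlap, but its log2 difference of 1.75 ± 0.31 did not pass (limma, adjusted p = 0.110). It passed without cervical replicate 2 (log2 difference 1.92, adjusted p = 0.0373, limma), with a pseudocount of 20 (0.0380) and without the filter (0.0271). *Hoxa9*, *Hoxc4* and *Hoxc5* overlapped between the groups, with log2 differences of 1.44 ± 0.55, 0.49 ± 0.27 and 1.31 ± 0.60 (SE). *Hoxc5* was at 113, 94.5 and 113 CPM in the lumbar/sacral libraries, a range that the 2 higher thoracic libraries reached. Its annotated span also contains *Hoxc6*, *Hoxc8* and *Hoxc9* on the same strand, which are not in the matrix, so reads of these neighbours cannot be told apart from it. *Hoxc10*, which is in the matrix, overlaps this span on the same strand as well.

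The order of the Hox genes was visible below the filter too. *Hoxd10*, the neighbour of *Hoxd11*, was at 12.3, 6.84 and 4.8 CPM in the lumbar/sacral libraries and at 0 in the rostral ones, at least 29.0-fold above the same floor. *Hoxc11*, *Hoxc12* and *Hoxc13* were at 2.40 to 5.86, 0.402 to 4.79 and 3.60 to 3.73 CPM against 0 in each rostral library, at least 13.9-fold, 8.47-fold and 13.3-fold higher when pooled. *Hoxa11*, *Hoxa13* and *Hoxc10* were at 0 in the rostral libraries and in 1 or 2 of the lumbar/sacral ones, and reached at most 3.0 CPM in the rest. *Hoxc10* overlaps *Hoxc5* on the same strand, and the part of read assignment in its level was not tested. *Gm28309*, on the same strand and not in the matrix, overlaps both *Hoxd10* and *Hoxd11*, so reads of it cannot be told apart from theirs. Thus 8 of the 28 genes were at 0 in each rostral library and above 0 in a lumbar/sacral one, while *Hoxb13* and *Hoxd13* were at 0 everywhere. Of the 11 genes numbered 10 and over 6 lay wholly above the rostral libraries, of the 3 numbered 9 only *Hoxd9* did, at 5.86, 2.81 and 7.20 CPM against 0 to 1.07, and of the 14 numbered 1 to 8 there were 0. By CPM 3.66% of the features tested lay wholly above in this way. That share covers only features over the filter, while 5 of these 7 Hox genes stood under it and have no test. No share for features under the filter is given. Levels of a few CPM rest on few corrected counts, in gamma nuclei 48 for *Hoxd10* and 14 for *Hoxc12*. The pattern was not particular to gamma nuclei. *Hoxd10* was at 2.4 to 10.5 CPM in lumbar/sacral alpha and 3.47 to 8.28 CPM in lumbar/sacral Type 3 nuclei, against 0 in rostral ones. *Hoxa10* also lay wholly above in both clusters, while *Hoxd9* overlapped in alpha nuclei.

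**Figure D3:**
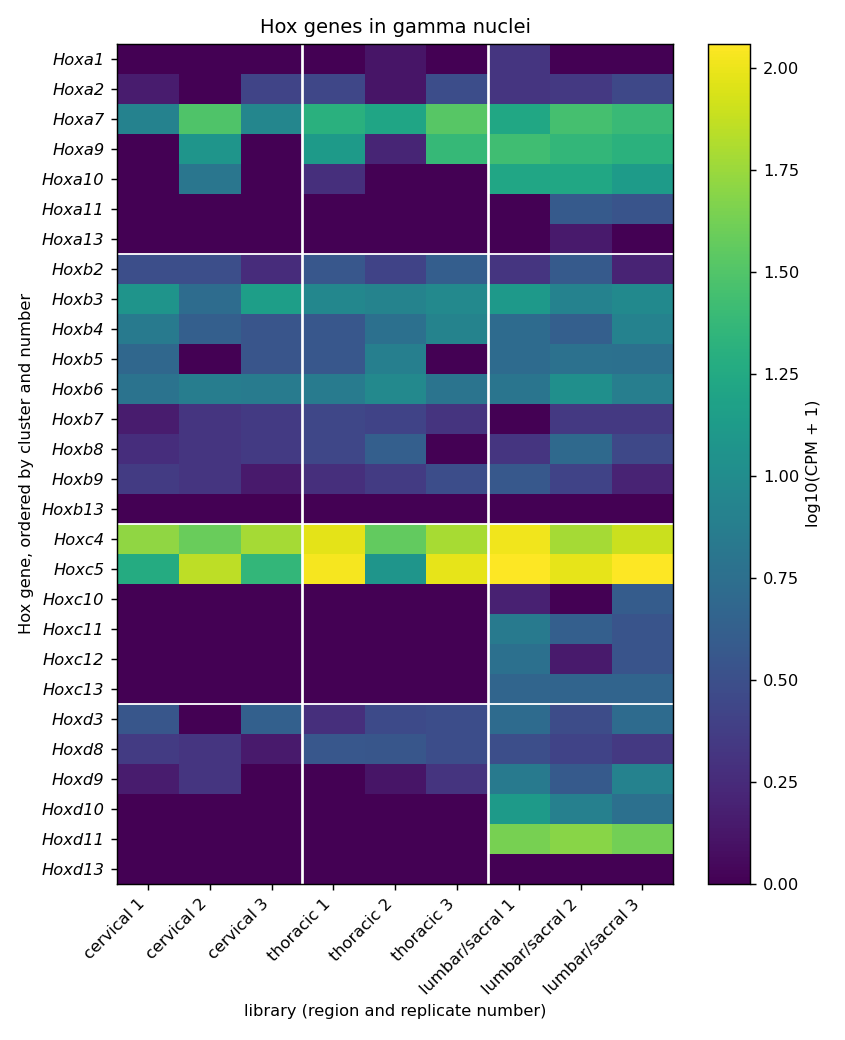
Level of the 28 Hox genes of the matrix in gamma nuclei, as log10 of CPM plus 1 (colour), by library (columns) and gene (rows, grouped by cluster and ordered by number). The lower rows of the A, C and D clusters are at or near 0 (dark) in most rostral libraries. Several of them are brighter in lumbar/sacral ones, such as *Hoxd11* at 40.8 to 47.9 CPM. *Hoxd13* and *Hoxa13*, the latter at most at 0.402 CPM, stay at or near 0 there too. The columns cervical 2 and thoracic 2 differ from the others of their region in *Hoxa9* and *Hoxc5*.

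The sequences around the starts of *Hoxd10* and *Hoxd11* are shown because these adjacent genes were both at 0 in every rostral library and present in every lumbar/sacral one. They are from RefSeq on GRCm38.p6, plus strand, run from 250 bases before the start to 50 after it, and are written in lower case, with each CACGTG in capitals. That motif, an E-box that reads the same on both strands, was chosen after the sequences had been read. It occurs in both windows and in 7.15% of the 32851 RefSeq windows of this length. RefSeq gives *Hoxd11* a second start further upstream, and its window, chr2:74679308-74679607, holds no CACGTG. The motif TTTAT, searched on both strands, is in that upstream window, in neither of the 2 shown and in 40.0% of all windows. These matches are descriptions of letters and not of binding.

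Hoxd11, chr2:74682073-74682372: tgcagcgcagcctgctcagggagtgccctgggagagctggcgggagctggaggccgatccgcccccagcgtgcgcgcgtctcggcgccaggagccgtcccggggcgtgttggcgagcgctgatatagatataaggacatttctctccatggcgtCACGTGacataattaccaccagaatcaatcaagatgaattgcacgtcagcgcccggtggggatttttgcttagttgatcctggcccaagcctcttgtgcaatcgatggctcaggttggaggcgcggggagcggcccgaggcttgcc
Hoxd10, chr2:74691641-74691940: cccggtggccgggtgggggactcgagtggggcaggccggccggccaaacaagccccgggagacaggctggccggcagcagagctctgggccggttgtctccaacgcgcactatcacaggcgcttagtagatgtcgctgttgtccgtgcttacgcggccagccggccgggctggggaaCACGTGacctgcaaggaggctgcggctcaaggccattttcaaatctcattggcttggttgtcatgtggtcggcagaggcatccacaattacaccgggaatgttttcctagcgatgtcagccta

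*Sox5*, a transcription factor of the SoxD group that acts in neuronal differentiation, was lower in lumbar/sacral gamma MNs. It lies on chromosome 6 from 143828425 to 144781977 on the minus strand and was at 92.7, 88.9 and 76.8 CPM in lumbar/sacral replicates 1 to 3. The rostral libraries were at 205, 220 and 249 CPM in cervical and 234, 171 and 200 CPM in thoracic replicates 1 to 3. The highest lumbar/sacral library was thus well under the lowest rostral one. *Sox5* fell by 1.25 on the log2 scale (SE 0.13, limma, adjusted p = 0.00377), a mean 2.48-fold higher in the rostral libraries. It did not pass without lumbar/sacral replicate 2 or without replicate 3. Of the antisense features that overlap *Sox5*, 3 are in the matrix, and whether counting used the strand is not given in the sources used here. At equal depth per nucleus it was found in 26.6 to 28.5% of lumbar/sacral gamma nuclei and in 39.8 to 53.5% of the rostral ones. *Sox5* is not on the list of motor column and pool transcription factors. None of that list passed, 0 of 31 tested of 53 (limma), with 7 at an unadjusted p under 0.05. For all features tested these shares were 0.061% and 5.98%. *Nr2f2*, *Satb1* and *Ldb1* lay wholly above and *Ebf1* and *Bcl11a* wholly below the rostral libraries, named after their values were seen, with adjusted p from 0.506 to 0.824 (limma). The 9 Hox cofactors had a median log2 difference of 0.10 and 0 calls (limma), with 0 at an unadjusted p under 0.05.

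*Hgf* encodes hepatocyte growth factor, a ligand that promotes survival and axon growth of motor neurons. It lies on chromosome 5 from 16553495 to 16620152, plus strand. Gamma nuclei of lumbar/sacral replicates 1 to 3 were at 93.8, 80.4 and 85.8 CPM, and the rostral sums ran from 30.1 to 43.9 CPM with cervical replicate 2 lowest and thoracic replicate 1 highest. The means of 86.6 ± 6.71 (SD, n = 3) and 35.1 ± 6.10 CPM (SD, n = 6) differed 2.47-fold, and *Hgf* rose by 1.20 ± 0.14 on the log2 scale (SE, limma, adjusted p = 0.0119). Without the male cervical and thoracic libraries the adjusted p was 0.0669 (limma) and the log2 difference 1.14, and *Hgf* did not pass either without any 1 of the lumbar/sacral libraries. *Met*, the receptor gene of this ligand, named after its values were seen, was at 0.600 to 2.41 CPM in lumbar/sacral and 0.850 to 4.39 CPM in rostral gamma nuclei, with overlap between the groups. Of 17 tested genes on the list of neurotrophic factors and receptors, *Hgf* was the only call, beside 0.061% of all features, and the median log2 difference of the list was 0.0099 beside 0.14 for all features.

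*Mctp2* and *Dysf* encode membrane proteins with several C2 domains, modules that bind calcium and phospholipids, and dysferlin, the product of *Dysf*, is known for membrane repair in muscle. *Mctp2* (chromosome 7, 72077830 to 72306608, minus strand) was at 83.1, 49.5 and 60.6 CPM in lumbar/sacral replicates 1 to 3. In the cervical libraries it was at 12.3, 12.9 and 9.05 CPM, and in the thoracic ones at 9.66, 6.06 and 12.5 CPM. The lumbar/sacral libraries spread more among themselves than the rostral ones, yet the lowest of them was over the highest rostral value. The means differed 6.18-fold and the log2 difference was 2.16 ± 0.21 (SE, limma, adjusted p = 0.00313). At equal depth *Mctp2* was found in 25.2, 17.6 and 16.6% of lumbar/sacral and 0.877 to 5.13% of rostral gamma nuclei. *Dysf* (chromosome 6, 84008590 to 84211060, plus strand) was at 95.4, 86.9 and 92.4 CPM against 47.6 to 58.0 CPM. It rose by 0.77 ± 0.10 on the log2 scale (SE, limma, adjusted p = 0.0260), the smallest of the 4 rises. Thinned to 4000 corrected counts, 29.2 to 31.1% of lumbar/sacral and 14.9 to 19.7% of rostral gamma nuclei held *Dysf*, but unthinned the shares overlapped, at 36.1 to 48.3% and 27.4 to 60.3%. Without the male cervical and thoracic libraries *Dysf* did not pass (limma, adjusted p = 0.0932) while *Mctp2* did (0.00857). Leaving out 1 library at a time, *Mctp2* passed except without lumbar/sacral replicate 3, and *Dysf* passed only without thoracic replicate 1 or 2.

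*Kcnc2* encodes Kv3.2, a voltage-gated potassium channel subunit that repolarises fast and allows high firing rates. It lies on chromosome 10 from 112271121 to 112467024, plus strand, and was at 121, 74.4 and 101 CPM in lumbar/sacral replicates 1 to 3. The rostral levels were 271, 216 and 293 CPM in cervical and 251, 190 and 225 CPM in thoracic replicates 1 to 3. The groups did not overlap, and *Kcnc2* fell by 1.26 on the log2 scale (SE 0.17, limma, adjusted p = 0.0260). Its thinned share was 32.7, 19.9 and 25.3% against 43.0 to 57.3% of nuclei. It was 1 of 42 potassium channel genes tested and the only call among them, beside 0.061% of all features. Leaving out 1 library at a time, it passed only without thoracic replicate 2. With the replicate block *Kcnq5*, an M-type potassium channel subunit, also fell, at 66.3 to 110 CPM against 116 to 342 CPM (log2 difference -1.29, limma, adjusted p = 0.0128 with the block and 0.343 without it). *Kcnip4*, *Kcnj6* and *Kcnk12*, named after their values were seen, lay wholly above the rostral libraries with adjusted p from 0.410 to 0.637 (limma), as did 3.66% of all features.

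With all 9 libraries, 1 guidance receptor, 1 protocadherin and 1 solute carrier passed with the block and not without it, and they are named after their values were seen. *Epha6*, an ephrin receptor of axon guidance, was at 441, 320 and 353 CPM in lumbar/sacral replicates 1 to 3 and at 599 to 1244 CPM in the rostral libraries (log2 difference -1.24, limma, adjusted p = 0.00626 with the block and 0.0969 without it). It also passed without the block when thoracic replicate 2 was left out (adjusted p = 0.0271, limma) and when both male rostral libraries were (0.0382). *Pcdh11x*, a protocadherin gene of the X chromosome, was at 44.2 to 70.8 CPM against 83.0 to 179 CPM, with adjusted p = 0.0188 with the block and 0.164 without it (limma). *Slc35f4*, a solute carrier gene on none of the lists, was at 175 to 243 CPM against 273 to 464 CPM, with adjusted p = 0.0483 and 0.146 in the same order (limma). In each of the 3 genes the lumbar/sacral libraries lay wholly below the others. The fall of *Epha6* was not particular to gamma MNs, since it passed in Type 3 MNs too, as given below. Without the block 0 of 43 axon guidance genes, 0 of 22 cadherins and protocadherins and 0 of 42 synaptic and axonal adhesion molecules passed (limma), with 6, 5 and 7 at an unadjusted p under 0.05 and median log2 differences of -0.014, -0.00060 and -0.037 beside 0.14 for all features. Of all features tested, 0.061% passed without the block and 5.98% had an unadjusted p under 0.05.

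Genes of transmission gave no call in either direction. There were 0 among 28 sodium, calcium and HCN channel genes, 38 glutamate, GABA and glycine receptor genes, 11 acetylcholine and monoamine receptor genes, 9 neuropeptide and granin genes and 5 cholinergic genes (limma), with 2, 2, 2, 1 and 0 at an unadjusted p under 0.05. Over all features tested, 0.061% were called and 5.98% had an unadjusted p under 0.05. At that share of calls lists of this size would hold few or none, so 0 calls say little about these genes. *Htr2c*, a serotonin receptor known to raise motor neuron excitability, lay wholly above the rostral libraries at 394 to 497 against 288 to 385 CPM (limma, adjusted p = 0.448). *Sst*, the somatostatin gene, was at 15 to 19.7 CPM against 0.411 to 9.37 CPM (limma, adjusted p = 0.199). *Adra1a*, an adrenergic receptor gene, was at 13.7 to 19.2 CPM against 3.51 to 10.7 CPM (limma, adjusted p = 0.637). The paper reports *Sst* and *Adra1a* together in a visceral MN cluster that it found only in the lumbar/sacral region. Whether RNA of such cells adds to these levels in gamma nuclei was not tested. *Gad2*, an enzyme of GABA synthesis counted here as a marker of inhibitory neurons, was at 9.06, 9.25 and 13.8 CPM against 19.3 to 32.9 CPM (limma, adjusted p = 0.111). *Htr2c*, *Sst* and *Adra1a* were named after their values were seen. *Chat* itself was at 261 to 289 and 264 to 332 CPM (log2 difference -0.15 ± 0.11, adjusted p = 0.832, limma). The lists of retinoic acid genes, collagens, perineuronal net components, immediate early genes, sex-linked genes and mitochondrial transcripts held 5, 9, 6, 2, 6 and 8 tested features and 0 calls (limma), with 0 at an unadjusted p under 0.05 in each. These lists are short beside the same shares over all features.

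**Figure D4:**
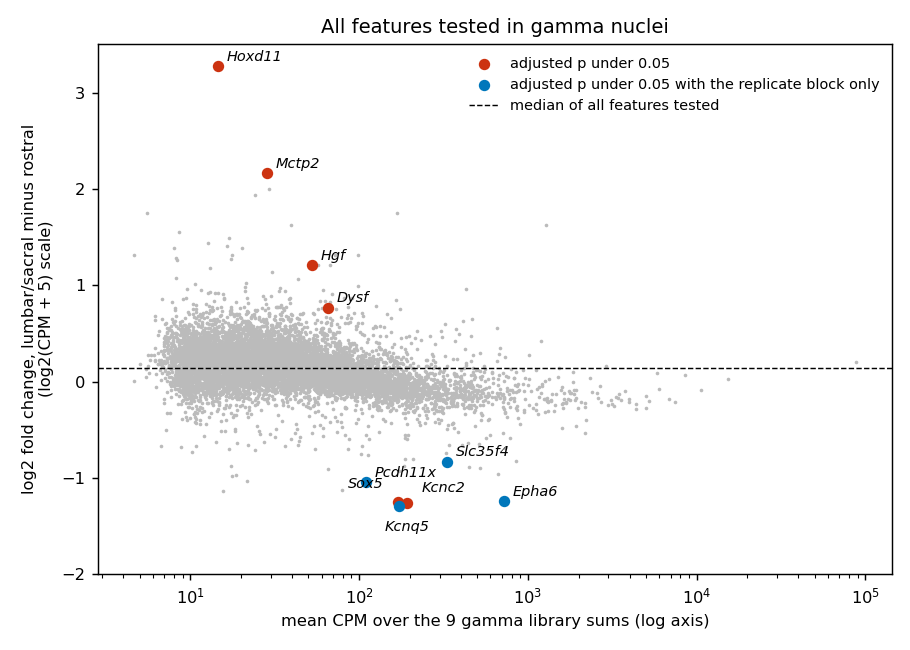
Log2 difference between lumbar/sacral and rostral gamma nuclei (log2 of CPM plus 5) against mean CPM over the 9 library sums (log axis), 1 point for each of the 9841 features. Red points passed in the main comparison, blue points passed with the replicate block only, and the dashed line is the median of all features, 0.14; features with a mean of 500 CPM or more had a median of -0.15.

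The share of nuclei holding a gene was also compared at equal depth for the 43 named genes that were tested, which uses the same nuclei as the sums. *Hoxd11*, *Mctp2*, *Hgf*, *Dysf*, *Sox5*, *Kcnc2*, *Hoxa10*, *Zeb2* and *Gad2* each had groups without overlap, at p = 0.0119, the smallest that the exact permutation test over 84 groupings can give (two-sided). None of the 43 stayed under 0.05 after Benjamini-Hochberg adjustment. The 84 groupings ignore that same-numbered libraries share mice. Over the 27 assignments within replicates the smallest p of this exact test was 0.0370. *Zeb2*, a visceral MN marker, was found in 3.76 to 5.82% of lumbar/sacral and 0 to 2.86% of rostral gamma nuclei. Unthinned, the shares overlapped for *Zeb2* (6.07 to 8.33% and 0.855 to 7.62%) and *Hoxa10* (6.82 to 11.0% and 0 to 8.62%), as for *Dysf*.

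Within the lumbar/sacral libraries, nuclei with and without *Hoxd11* were compared for 9 other genes. In replicate 1 *Mctp2* was in 48.5% of the 66 nuclei with *Hoxd11* and 23.0% of the 330 without. In replicate 2 it was in 52.2% of 90 and 17.2% of 256. In replicate 3 it was in 35.2% of 54 and 20.9% of 235. *Mctp2* was thus found more often beside *Hoxd11* in 3 of 3 libraries, and the median totals of both sets of nuclei were close, 4947 and 4898, 7338 and 7293, and 5894 and 5906. *Hoxd10*, at 15.2 and 3.94%, 7.78 and 3.91%, and 3.70 and 2.55%, went the same way in each library. So did *Kcnc2*, a gene lower in the lumbar/sacral cord, at 37.9 and 34.8%, 41.1 and 25.8%, and 38.9 and 29.4%. *Hgf*, at 54.5 and 29.1%, 51.1 and 38.3%, and 29.6 and 38.3%, did not keep 1 direction, nor did *Hoxa10*, *Hoxd9*, *Dysf* and *Sox5*, and *Esrrg* was found in each of these nuclei. These shares describe nuclei that share a library and carry no test, and these genes were set beside *Hoxd11* after the comparison was known.

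**Figure D5:**
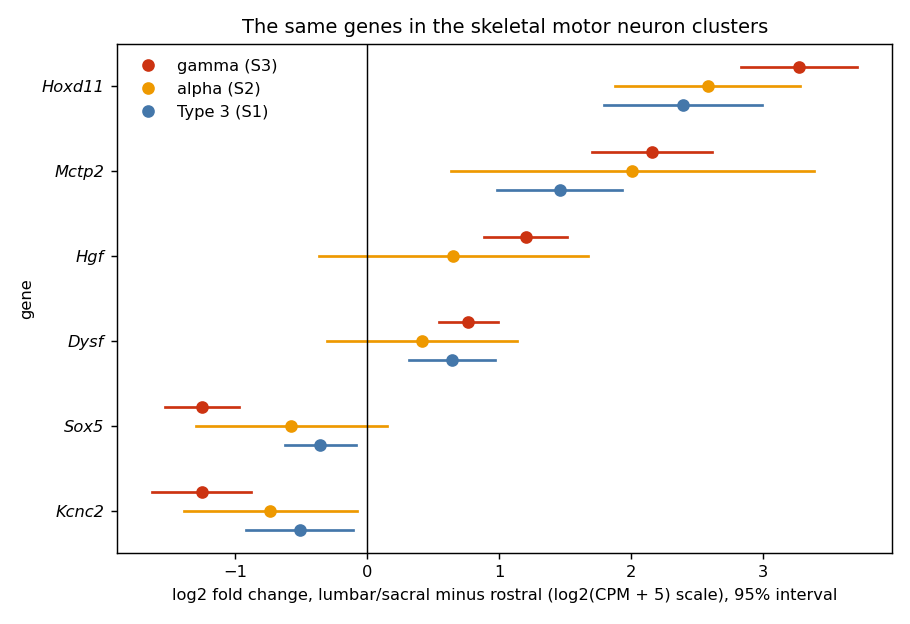
Log2 difference between lumbar/sacral and rostral libraries (log2 of CPM plus 5) with its 95% interval for the 6 genes in gamma (S3), alpha (S2) and Type 3 (S1) nuclei. *Hoxd11* and *Mctp2* lie to the right of 0 in all 3 clusters, *Sox5* and *Kcnc2* lie furthest left in gamma, and *Hgf* has no Type 3 value because it was under the filter there.

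The other skeletal clusters of the same libraries were compared in the same way. In alpha MNs *Hoxd11* was the only call of 10387 features (0.00963%, with 1.94% at an unadjusted p under 0.05), at 36.8, 28.6 and 14.2 CPM in lumbar/sacral replicates 1 to 3 and 0 in the rostral libraries (limma, adjusted p = 0.0339, and 0.0766 with the replicate block). In Type 3 MNs 7 of 10025 features passed (0.0698%), 4 higher (0.0399%) and 3 lower (0.0299%), with 4.34% at an unadjusted p under 0.05, among them *Hoxd11* at 19.0, 21.7 and 23.4 CPM against 0 and *Mctp2* at 94.3 to 161 CPM against 29.0 to 57.5 CPM (limma, adjusted p = 0.0240 and 0.0450). *Epha6* was among the 3 lower ones, with a log2 difference of -1.27 ± 0.19 (SE, limma, adjusted p = 0.0450, and 0.0154 with the replicate block). With the replicate block 14 passed in Type 3 MNs. *Mctp2* in alpha MNs was at 81.1 to 188 CPM against 0.981 to 55.0 CPM and did not pass (limma, adjusted p = 0.988). *Hgf* was low outside the gamma cluster, at 7.16 to 27.6 CPM in lumbar/sacral alpha and 4.89 to 8.68 CPM in lumbar/sacral Type 3 nuclei. In Type 3 MNs *Sox5* was at 159 to 193 CPM in lumbar/sacral and 198 to 272.5 CPM in rostral libraries. *Dysf* was at 55.2 to 69.55 against 28.5 to 43.1 CPM there. Neither overlapped between the groups and neither passed, so their directions were not particular to gamma MNs. In alpha MNs both overlapped, and *Kcnc2* overlapped in both clusters. *Hoxd11* was at 0 in each rostral library of both clusters, so its p carries the limit given for gamma nuclei.

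Whether the regional difference itself differed between clusters was tested by the interaction. Between gamma and alpha MNs 0 of 10793 features passed (0.0%), with 234 (2.17%) at an unadjusted p under 0.05 (limma). Between gamma and Type 3 MNs 0 of 10439 passed (0.0%), with 650 (6.23%) at an unadjusted p under 0.05 (limma), 29 passing with a pseudocount of 20 and 1 passing with the replicate block. *Sox5* came nearest there together with *Hoxd11*. The regional difference of *Sox5* was lower in gamma than in Type 3 MNs by a log2 value of -0.90, with a 95% interval of -1.18 to -0.62, and that of *Hoxd11* was higher by 0.88, with an interval of 0.63 to 1.14 (limma, adjusted p = 0.0536 for both). The value of *Hoxd11* depends on the pseudocount, since its rostral libraries are at 0. For *Kcnc2* the log2 value was -0.74, with an interval of -1.10 to -0.39 (adjusted p = 0.230, limma). For *Mctp2* and *Hgf* against alpha MNs the intervals ran from -1.39 to 1.68 and from -0.40 to 1.5, which leaves room for differences of either sign. Against Type 3 MNs *Sox5* passed without doublets (adjusted p = 0.0478, limma), with the stricter filter (0.0185), with a pseudocount of 20 (0.00465) and without the filter (0.0475). *Hoxd11* passed without doublets (0.0272), with that pseudocount (0.0108) and without the filter (0.0260, limma).

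Against each rostral region on its own, lumbar/sacral gamma nuclei differed from cervical ones in 3 features (0.0305%), *Hoxd11*, *Mctp2* and *Sox5*, and from thoracic ones in 4 (0.0406%), the same 3 genes and *Gm39185* (limma). Against cervical 2 were higher (0.0203%) and 1 lower (0.0102%), and against thoracic 3 were higher (0.0305%) and 1 lower (0.0102%), with 8.19% and 3.63% of features at an unadjusted p under 0.05. The 2 comparisons share the lumbar/sacral libraries. With the replicate block 6 and 8 features passed. *Mctp2* was higher than in cervical nuclei by 2.06 ± 0.24 and than in thoracic ones by 2.26 ± 0.24, and *Sox5* was lower by a log2 value of -1.34 ± 0.15 and -1.17 ± 0.15 (log2 differences with SE). Both comparisons rest on the male libraries that went against their labels. Without these, 3 features passed against cervical, where *Hoxc5* (log2 difference 2.18 ± 0.16) and *Ltbp1* (-1.22 ± 0.12) joined *Hoxd11*, and *Mctp2* and *Sox5* did not pass. Against thoracic 10 passed, 8 higher and 2 lower, among them *Hoxd11*, *Mctp2*, *Plce1*, *Glis1* and *Tshz1* higher and *Sox5* and *Ebf1* lower. *Ltbp1*, *Gm39185*, *Plce1*, *Glis1*, *Tshz1* and *Ebf1* are named after their values were seen. In the pooled comparison without both male libraries 6 features passed, *Hoxd11*, *Mctp2*, *Sox5* and *Kcnc2* of the main calls with *Epha6* and *Kcnq5*.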

How the data were processed

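The values are a score: corrected counts that the authors deposited after alignment with Cell Ranger 3.1.0 to a GRCm38 (mm10) pre-mRNA reference, removal of outlying nuclei and SCTransform in Seurat, applied to each barcoded region separately. Labels of other kind, such as cluster and region, were also the authors'. Libraries were assigned by the name that ends each barcode. Corrected counts were summed per library and cluster, scaled to 1000000, and tested with limma 3.58.1 (R 4.3.3, trend) on log2(CPM + 5) for features with 10 CPM in at least 3 sums, with Benjamini-Hochberg adjustment over all of them. Libraries, not nuclei, were the replicates. Corrected counts are a model's output, so no count test was used. The limma steps were tested on simulated data. Shares used an exact permutation test over 84 groupings, nuclei being thinned to 4000 corrected counts, which left out 35 nuclei of lumbar/sacral replicate 1. Limits at a count of 0 use 3 counts and cover counting error only. Positions are from GENCODE on GRCm38, where 21095 of 21457 features matched by symbol.

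Same-numbered libraries come from the same mice, so the replicate number served as a block in an alternative fit. Their deviations from the group means correlated at -0.22 to 0.83 over 9 pairs. The gamma cluster, the gene lists and the rule for naming genes were chosen with earlier results of these data known. The rule names called genes without overlap between groups and with a mean of at least 20 CPM in the higher group, the Hox genes, the cell class markers, genes called in a difference between clusters, and up to 3 called members in each direction of every other list. Other genes are said to be named after their values were seen. Python 3.11.15, numpy 2.4.6, pandas 2.3.3, scipy 1.17.1 and scanpy 1.11.5 (Scrublet) were used, with the seed 1.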

Additional observations from a re-analysis of the deposited data

Results flagged for a closer look

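Of 25 reported values checked for a rostral library far from the other 5, 1 stood apart. *Hoxa10* in gamma nuclei was at 5.37 CPM in the library labelled cervical replicate 2 and at 0 to 0.878 CPM in the other rostral libraries. This is a library whose *Hoxa9* and *Hoxc5* levels also went against its label. Chance marks about 1 in 20 such groups. The lumbar/sacral libraries, at 12.6 to 15.7 CPM, lay above it.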

How the results depend on the processing

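The 6 calls of the main comparison became 3 under median-of-ratios scaling, 10 with a pseudocount of 20, 18 without the filter, 10 with the replicate block, 3 with sums thinned to the smallest, and 1 with depth as a covariate, which was added after the data were seen. Leaving out 1 library gave 0 to 9 calls. It was 0 without lumbar/sacral replicate 3, 1 without lumbar/sacral replicate 2, 2 without lumbar/sacral replicate 1 and 9 without thoracic replicate 2. *Hoxd11* then falls under the filter whenever a lumbar/sacral library is left out, since only these libraries hold it, and the filter of at least 10 in every sum leaves it out too. It passed in each of the 17 alternatives that could test it, with adjusted p from 5.57e-06 to 0.0139 (limma). Each of these keeps all 3 lumbar/sacral libraries and has *Hoxd11* at 0 in every rostral library it uses. This count therefore does not measure stability over the lumbar/sacral libraries. *Mctp2* passed in 19 of 21 alternatives, *Sox5* in 18, *Hgf* in 14, and *Dysf* and *Kcnc2* in 10 each, and none of them changed direction. Lumbar/sacral against cervical gave 3 calls, with 0 at a pseudocount of 1, 6 without the filter, 6 with the replicate block, 0 with depth as a covariate and 0 to 3 without 1 library (0 without any lumbar/sacral library, 1 without any cervical library or thoracic replicate 3). Against thoracic the 4 calls became 2 under median of ratios, 7 without the filter, 8 with the block, 2 with thinned sums, 0 with depth as a covariate, 10 without the male cervical and thoracic libraries (added after the data were seen) and 0 to 3 without 1 library (0 without any lumbar/sacral library, 1 or 2 without thoracic replicates 1 to 3, 1 without cervical replicate 1 or 3). In alpha MNs the 1 call became 2 without the filter and 0 under median of ratios, pseudocounts of 1 and 20, at least 10 counts in every sum, the block, thinned sums, depth as a covariate, without the male libraries, and without any 1 library (0 to 0). In Type 3 MNs the 7 calls became 12 without the filter, 14 with the block, 1 with nuclei weighted equally, 0 under median of ratios, a pseudocount of 1, thinned sums, depth as a covariate and without the male libraries, and 0 to 9 without 1 library (at most 1 except without thoracic replicate 2). For gamma minus Type 3 the 0 calls became 29 with a pseudocount of 20, 6 without the filter, 7 with the stricter filter, 1 with the block, 5 without doublets, and 0 to 1 without 1 library. For gamma minus alpha the count was 0 under each alternative. Both cluster shares kept their direction and side of the threshold under each alternative, at 2.06 to 11.1 and 3.96 to 6.79 percentage points without 1 library. The cause of these changes was not tested, apart from the filter on *Hoxd11*. The block changed no call other than those given. With depth as a covariate the log2 differences of *Mctp2*, *Hgf*, *Dysf*, *Sox5* and *Kcnc2* kept their direction and lost their calls. The median total per gamma nucleus was 4909 to 7311 in lumbar/sacral and 7053 to 16190 in rostral libraries. This gamma value was the covariate in every fit, also in those of alpha MNs, of Type 3 MNs and of differences between clusters. Those fits were thus not adjusted for the depth of the other clusters.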
